A study of Mus musculus with 4 samples.

Results

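The 36 genes described here encode proteins of the G2 phase and of mitosis: chromosome factors, cyclins and cyclin-dependent kinase 1, mitotic kinases, activators of the anaphase-promoting complex, centromere and kinetochore proteins, kinesins, spindle proteins and a cytokinesis factor. They were chosen by name and function, and all 36 were among the 13518 genes measured in 13213 single cells. Cells came from orthotopic tumours grown in C57BL/6 mice from MC38, a mouse colon carcinoma line, and the study asked whether Atractylenolide I (ATT-I), a plant lactone of the sesquiterpene class, bears on treatment with an antibody against PD-1, an inhibitory receptor of T cells. Tumours were taken 2 weeks after treatment began, and the 5 tumours of an arm were pooled into 1 10x Genomics droplet library. The vehicle arm had neither agent and gave 155 cells (the labels call it vehicle control in one place and untreated in another). The anti-PD-1 arm had the antibody 3 times a week, 5 doses in all, and gave 12562 cells. The ATT-I arm had 50 mg/kg each day and gave 297 cells. The combination arm had both agents and gave 199 cells. With 1 library in each arm there is no replicate, so every difference is between libraries, no test of a treatment was possible, and the 95% intervals cover counting error only.

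A cell that has copied its DNA enters mitosis when cyclin-dependent kinase 1 is switched on by cyclins A and B. Kinases of the Polo, Aurora and Bub families then order spindle assembly and hold back anaphase until the kinetochores are attached, and the anaphase-promoting complex ends mitosis by marking cyclin B and securin for destruction. Transcripts of this machinery accumulate late in the cycle and are scarce in resting T cells, so in a tumour infiltrate they are commonly read as a sign of dividing lymphocytes.

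A class of promoters with CCAAT boxes and a CHR element, whose core is TTTGAA, is known for G2/M genes, so the promoters of the members were searched for both. RefSeq sequence of GRCm38.p6, from 250 bases before to 50 bases after a start site, was found for 30 of the 36 members, in 32 windows. Aurkb, Ccna2, Pbk, Stmn1, Tpx2 and Kif20a had no window. CCAAT, read on both strands, stood in 25 of the 32 windows (78.1%), against 37.4% of all 32851 windows. TTTGAA, read on both strands, stood in 23 (71.9%), against 17.9% of all windows. Both stood in 20 (62.5%), against 6.95% of all windows, and no CCAAT match overlapped a TTTGAA match. Of the DNA replication and G1/S genes described at the end, TTTGAA stood in 10.0% of 30 windows and CCAAT in 63.3%. Of the other mitotic genes described there, TTTGAA stood in 55.8% of 77 windows and CCAAT in 74.0%, so both elements were frequent in mitotic genes outside the group too. A match is a run of letters and not a measured site. The stretches just before the annotated gene start of 5 members that hold both elements are shown. Of the members fixed by symbol, these had both elements there, within at most 150 bases before the RefSeq start. The stretches were chosen on sequence and not on levels in the libraries. They are written 5′ to 3′ on the strand of the gene, and capitals mark CCAAT and TTTGAA or their reverse complements ATTGG and TTCAAA. Mki67 is read from chr7:135716380-135716529 (minus strand), Top2a from chr11:99024190-99024339 (minus), Cdk1 from chr10:69352939-69353062 (minus), Cdc20 from chr4:118437353-118437493 (minus) and Kif11 from chr19:37376232-37376381 (plus).
Mki67: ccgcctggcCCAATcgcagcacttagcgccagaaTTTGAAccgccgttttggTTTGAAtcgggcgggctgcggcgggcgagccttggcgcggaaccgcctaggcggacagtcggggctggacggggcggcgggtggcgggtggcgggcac
Top2a: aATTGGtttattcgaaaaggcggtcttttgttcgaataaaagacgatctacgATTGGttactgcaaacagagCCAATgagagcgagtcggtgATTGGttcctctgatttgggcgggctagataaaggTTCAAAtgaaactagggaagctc
Cdk1: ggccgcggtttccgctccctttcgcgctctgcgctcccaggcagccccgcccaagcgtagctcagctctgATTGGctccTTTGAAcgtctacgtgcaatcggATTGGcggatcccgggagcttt
Cdc20: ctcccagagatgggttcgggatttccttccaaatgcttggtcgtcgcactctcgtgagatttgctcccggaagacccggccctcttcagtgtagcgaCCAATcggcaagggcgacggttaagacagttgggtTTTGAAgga
Kif11: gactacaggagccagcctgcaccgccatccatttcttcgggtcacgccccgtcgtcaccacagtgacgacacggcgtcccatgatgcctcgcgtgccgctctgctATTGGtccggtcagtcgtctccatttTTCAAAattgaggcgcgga

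Several properties of the libraries move with the results below. The median cell held 16129 UMIs (transcript molecules counted by their barcode) in vehicle, 7148 with anti-PD-1, 6828 with ATT-I and 23927 with both. The libraries totalled 3099824, 108628721, 2878355 and 5232593 UMIs in that order. Although the tissue is labelled as tumour, the cells were mostly T cells by their markers. The summed level of 8 T cell genes lay between 49.8 and 77.9 UMIs per 10000, and that of 5 epithelial genes between 0.0758 and 0.366. ATT-I cells carried haemoglobin RNA: the summed level of 4 haemoglobin genes was 30.5 there, 0.981 in anti-PD-1, 0.0860 in vehicle and 0.0307 in the combination. Hbb-bs was found in 99.1% of ATT-I cells with Cd8 transcripts, and in 30.0% of such anti-PD-1 cells, which are not red cells. The summed level of 5 natural killer cell genes was 4.85 in vehicle, 3.61 with anti-PD-1, 3.00 with ATT-I and 1.76 with both, and that of 13 mitochondrial genes was 400, 228, 393 and 355. Markers of monocytes, B cells and fibroblasts summed to between 0.00928 and 0.507 in every library. The part of these differences in the results was not tested. No doublets were removed, and 1 barcode occurred in 2 libraries.

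The members as a group were abundant in vehicle and the combination and scarcer in the other libraries. Their summed level, the mean over cells of member UMIs per 10000 UMIs of the cell, was 56.8 in vehicle, 21.6 with anti-PD-1, 16.2 with ATT-I and 63.5 with both. The median cell stood at 26.5, 6.47, 2.60 and 49.3 in that order, so the means of anti-PD-1 and ATT-I were carried by a minority of cells. Cells without a single member UMI numbered 14 of 155, 570 of 12562, 78 of 297 and 8 of 199. All 36 members reached the minimum level for comparison (0.1 UMIs per 10000, averaged over the 2 libraries) in each comparison of all cells. In the text a gene is counted as higher or lower where its levels differ by 1.5-fold or more, which is 0.585 on the log2 scale.

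**Figure D1:**
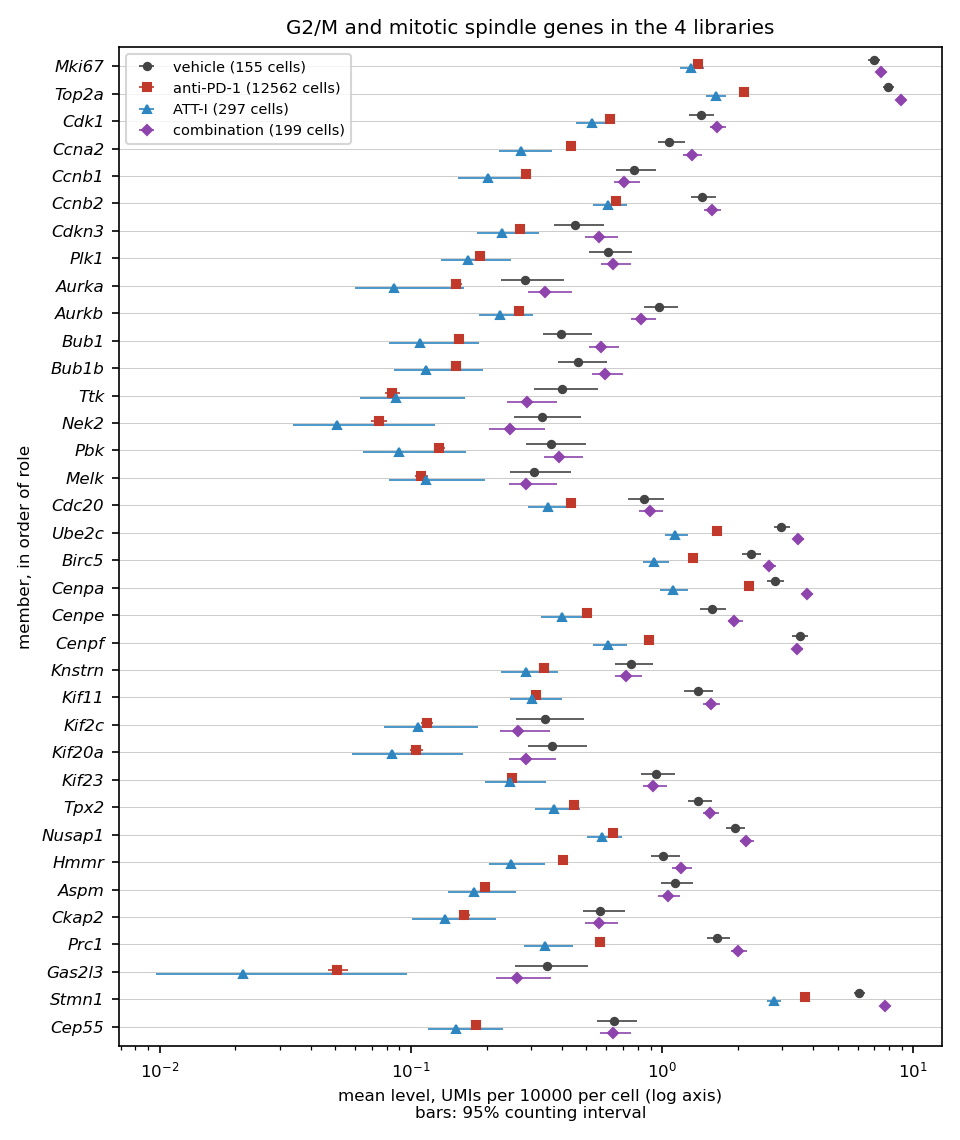
Level of each of the 36 members (mean UMIs per 10000 over cells, log axis) in the 4 libraries, with 95% counting intervals. The points of vehicle and the combination lie near each other for each gene, and those of anti-PD-1 and ATT-I lie to their left. Cenpa of anti-PD-1 comes closest to vehicle, at 2.22 against 2.82.

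Both chromosome members followed the split between the libraries. Mki67, which coats mitotic chromosomes and is the usual marker of proliferation, stood at 6.97 UMIs per 10000 in vehicle, 1.39 with anti-PD-1, 1.30 with ATT-I and 7.47 with both. Top2a, the topoisomerase that untangles sister chromatids, stood at 7.95, 2.13, 1.64 and 8.94. For both genes vehicle and the combination were high and the single treatments low. The counting intervals of the high and the low libraries did not meet, but they hold no spread between cells or between libraries. The log2 ratio of the combination to anti-PD-1 was 2.43 for Mki67 (95% counting interval 2.38 to 2.48) and 2.07 for Top2a.

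The cyclin and CDK members had smaller ratios between libraries. Cdk1, the kinase that drives entry into mitosis, stood at 1.42 in vehicle, 0.620 with anti-PD-1, 0.524 with ATT-I and 1.66 with both. Ccna2 (cyclin A2), which acts from S phase into prometaphase, stood at 1.07, 0.432, 0.273 and 1.31. Ccnb1 (cyclin B1) stood at 0.773, 0.288, 0.203 and 0.708, and was the one cyclin whose level was lower in the combination than in vehicle, at -0.13 on the log2 scale, with an interval that spans 0 (-0.39 to 0.14). Ccnb2 (cyclin B2) stood at 1.45, 0.655, 0.608 and 1.57. Cdkn3, a phosphatase that acts on CDKs, stood at 0.449, 0.273, 0.231 and 0.559. The median log2 ratio of anti-PD-1 to vehicle over these 5 genes was -1.20, and it was -2.12 over the 2 chromosome members.

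For all 9 kinases vehicle and the combination stood above both single treatments. Plk1, the Polo kinase of centrosome maturation and mitotic entry, stood at 0.607 in vehicle, 0.189 with anti-PD-1, 0.168 with ATT-I and 0.639 with both. Aurka, the Aurora kinase of the spindle poles, stood at 0.284, 0.151, 0.0853 and 0.341. Aurkb, the Aurora kinase of the chromosomal passenger complex, stood at 0.975, 0.269, 0.225 and 0.828. Bub1, a kinase of the spindle checkpoint, stood at 0.397, 0.155, 0.109 and 0.571. Its log2 ratio of the combination to vehicle, 0.52 (0.24 to 0.81), was the highest of the 36 members and still under the 1.5-fold line. Ttk, the checkpoint kinase Mps1, stood at 0.401, 0.0844, 0.0875 and 0.289, and its ratio of the combination to vehicle was the lowest, at -0.47 (-0.90 to -0.05). Nek2, a centrosome kinase, stood at 0.333, 0.0743, 0.0508 and 0.248. The other 3 kinases, Bub1b, Pbk and Melk, were likewise lower in both single-treatment libraries, with log2 ratios of the combination to anti-PD-1 of 1.97 for Bub1b and 1.39 for Melk.

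Regulators of mitotic exit and the passenger member Birc5 showed smaller ratios. Cdc20, which activates the anaphase-promoting complex, stood at 0.849 in vehicle, 0.435 with anti-PD-1, 0.352 with ATT-I and 0.891 with both. Ube2c, the ubiquitin-conjugating enzyme of that complex, stood at 2.97, 1.66, 1.13 and 3.49. Birc5 (survivin), which targets Aurora B to the centromere, stood at 2.26, 1.33, 0.931 and 2.67. The log2 ratio of anti-PD-1 to vehicle was -0.96 for Cdc20, -0.84 for Ube2c and -0.76 for Birc5, each past 1.5-fold but nearer to it than the chromosome members.

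Among the 4 centromere and kinetochore members the spread was wide. Cenpa, the histone H3 variant of centromeres, stood at 2.82 in vehicle, 2.22 with anti-PD-1, 1.11 with ATT-I and 3.79 with both. Its ratio of anti-PD-1 to vehicle, -0.35 (-0.45 to -0.24), was the only one of the 36 that did not reach 1.5-fold. Cenpe, a kinetochore kinesin that moves chromosomes to the spindle equator, stood at 1.57, 0.502, 0.398 and 1.94. Cenpf, a large kinetochore protein, stood at 3.54, 0.884, 0.607 and 3.44. Knstrn, a kinetochore adaptor that works at the end of metaphase, stood at 0.754, 0.338, 0.286 and 0.721.

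Ratios differed widely among motors and spindle proteins. Kif11, the motor that pushes spindle poles apart, stood at 1.38 in vehicle, 0.315 with anti-PD-1, 0.303 with ATT-I and 1.56 with both. Kif2c, Kif20a and Kif23, which depolymerize microtubules or build the central spindle, had levels between 0.0840 and 0.95. Tpx2, which nucleates spindle microtubules, stood at 1.40, 0.445, 0.372 and 1.55. Prc1, which bundles the central spindle, stood at 1.66, 0.564, 0.342 and 2.01. Aspm, a protein of spindle poles, stood at 1.13, 0.197, 0.179 and 1.05. Gas2l3, a linker of actin and microtubules, stood at 0.350, 0.0510, 0.0214 and 0.265, and its log2 ratio of ATT-I to vehicle, -4.03 (-5.06 to -2.99), was the lowest of that comparison and rests on 11 UMIs in 7 ATT-I cells. Stmn1 (stathmin), which destabilizes microtubules, stood at 6.11, 3.69, 2.78 and 7.73. Its log2 ratio of anti-PD-1 to vehicle was -0.73, among the smallest. Nusap1, Hmmr and Ckap2, which bind spindle microtubules, and the abscission factor Cep55 had log2 ratios of anti-PD-1 to vehicle that were all past 1.5-fold, with Cep55 at -1.82.

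Counted over the members, anti-PD-1 was lower than vehicle for 35 of 36, against 34.0% of all 7651 genes compared, and higher for 0 (7.04% of all genes). The median log2 ratio was -1.58, and that of all genes was -0.30. Gas2l3 (-2.78), Aspm (-2.52) and Mki67 (-2.33) were lowest, and Cenpa (-0.35), Cdkn3 (-0.72) and Stmn1 (-0.73) were nearest to vehicle. ATT-I was lower than vehicle for 36 of 36 (33.9% of all genes) and higher for 0 (4.03%), with a median of -1.95 against -0.34 for all genes. Gas2l3 (-4.03), Nek2 (-2.71) and Aspm (-2.66) were lowest, and Cdkn3 (-0.96), Stmn1 (-1.13) and Ccnb2 (-1.25) were nearest to vehicle. The combination differed from vehicle by less than 1.5-fold for every member. It was higher for 0 of 36 (4.01% of all genes) and lower for 0 (14.4%), with a median of 0.11 against -0.10. Bub1 (0.52), Cenpa (0.42) and Bub1b (0.35) were highest and Ttk (-0.47), Nek2 (-0.43) and Gas2l3 (-0.40) lowest. These 3 comparisons share the 155 vehicle cells.

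Against the single treatments the combination was higher throughout. It was higher than anti-PD-1 for 36 of 36 members (24.7% of all genes) and lower for 0 (8.88%), with a median log2 ratio of 1.68 against 0.17 for all genes. Mki67 (2.43), Aspm (2.42) and Gas2l3 (2.38) had the highest ratios and Cenpa (0.77), Birc5 (1.0) and Cdc20 (1.03) the lowest. It was higher than ATT-I for 36 of 36 members (26.6%) and lower for 0 (7.44%), with a median of 1.96 against 0.24. Gas2l3 (3.63), Aspm (2.56) and Prc1 (2.55) had the highest ratios and Cdkn3 (1.28), Kif2c (1.32) and Melk (1.32) the lowest. Both comparisons share the 199 combination cells. Much of the median difference was not seen between cells of like depth, as follows.

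From 5000 UMIs up, the summed level of the members over all cells rose with the class of depth inside each library. Vehicle cells under 5000 UMIs stood higher than the next class, at 43.4 in 11 cells against 11.8. Among anti-PD-1 cells, those with 10000 or more UMIs had higher levels than shallower cells for 35 of the 35 members that entered (7.7% of all genes), and lower for 0 (7.69%). The median log2 ratio was 2.16, and that of all genes was -0.05. Ccna2 (2.57), Nusap1 (2.51) and Pbk (2.51) had the highest ratios and Cenpa (1.21), Knstrn (1.72) and Cenpe (1.86) the lowest. Levels are already divided by the UMIs of the cell, so a deeper cell does not have a higher level by construction. Cells of 20000 or more UMIs made up 62 of 155 cells in vehicle, 542 of 12562 with anti-PD-1, 33 of 297 with ATT-I and 123 of 199 with both. Between libraries, the RNA content of the cells and the depth of sequencing cannot be told apart here.

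Within each class of depth from 5000 UMIs up, the libraries lay closer together than over all cells. Under 5000 UMIs they did not. There the summed level was 43.4 in vehicle, 10.8 with anti-PD-1, 3.26 with ATT-I and 2.88 with both. These values came from 11, 3075, 100 and 6 cells. In cells of 20000 or more UMIs the summed level was 80.3 in vehicle, 67.7 with anti-PD-1, 48.9 with ATT-I and 84.2 with both. In cells of 10000 to under 20000 UMIs it was 69.9, 44.9, 34.8 and 39.2, so over all these cells the combination stood below anti-PD-1. The mix of cells differed there: 24 of 50 combination cells and 2243 of 2950 anti-PD-1 cells passed the CD8 gate defined below. In that gate the combination stood higher, at 75.3 against 47.0. It stood lower in the CD4 gate (6.43 in 16 cells against 38.6 in 111) and the Foxp3 gate (6.74 in 7 against 53.6 in 134). In cells of 5000 to under 10000 UMIs the summed level was 11.8, 11.5, 8.54 and 15.6, from 41, 5995, 108 and 20 cells. The median cell of that class stood at 3.64, 5.28, 1.74 and 2.44. At 10000 to under 20000 UMIs the median cell stood at 9.66, 13.2, 5.46 and 4.52. By the median anti-PD-1 was thus highest in both classes, unlike the order of the means.

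**Figure D2:**
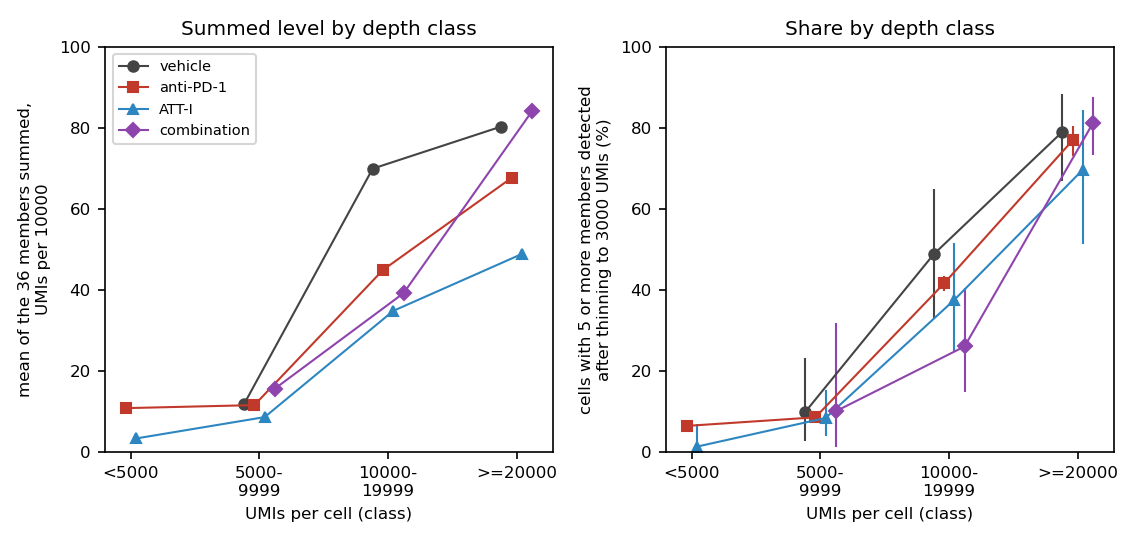
Left, summed level of the 36 members (mean UMIs per 10000) by class of cell depth in the 4 libraries. Right, percent of cells with 5 or more members detected after thinning to 3000 UMIs, with exact 95% intervals. Only classes with at least 20 cells are drawn. In every library the deeper classes lie above the class of 5000 to under 10000 UMIs, and at 20000 or more UMIs the summed level runs from 48.9 in ATT-I to 84.2 in the combination.

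Single members differed in what remained at matched depth. In cells of 20000 or more UMIs, the combination was higher than anti-PD-1 for 10 of 36 members (25.5% of all genes) and lower for 0 (9.13%), with a median of 0.24 against 0.14. The share of members counted as higher was thus close to that of all genes. Gas2l3 (1.29), Aspm (1.27) and Mki67 (1.13) had the highest ratios and Birc5 (-0.36), Ube2c (-0.36) and Aurka (-0.25) the lowest. Mki67 stood at 8.76 in vehicle, 4.34 with anti-PD-1, 3.88 with ATT-I and 9.53 with both, and Kif11 at 1.83, 1.04, 0.767 and 2.04, so both kept the split. Cdk1 stood at 2.27, 2.37, 1.77 and 2.34, and Stmn1 at 10.1, 11.1, 9.44 and 10.4, so for these the split between anti-PD-1 and the combination was gone. Ube2c stood at 4.25, 6.20, 3.68 and 4.82, with anti-PD-1 the highest.

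The other depth-matched comparisons, which take all cells of a class together, gave the same mixture. In cells of 20000 or more UMIs, anti-PD-1 was lower than vehicle for 10 of 36 members (29.5% of all genes) and higher for 0 (11.2%), with a median of -0.39 against -0.16 for all genes. Gas2l3 (-1.62), Aspm (-1.03) and Mki67 (-1.01) were lowest, and Ube2c (0.54), Cdc20 (0.38) and Cdkn3 (0.35) were highest. The combination was higher than vehicle for 0 of 36 (5.56%) and lower for 0 (8.31%), with a median of 0.04; Cenpa (0.39), Cenpe (0.33) and Aspm (0.24) were highest and Nek2 (-0.57), Ttk (-0.52) and Aurkb (-0.38) lowest. In cells of 10000 to under 20000 UMIs, the combination was higher than anti-PD-1 for 3 of 36 members (33.3%), namely Gas2l3 (1.17), Mki67 (1.01) and Kif11 (0.60). It was lower for 8 (11.3%), with Ube2c (-1.18), Nek2 (-1.09) and Cdk1 (-1.02) lowest, and a median of -0.31 against 0.25 for all genes. Against ATT-I it was higher for 7 of 35 (34.3%), led by Gas2l3 (1.66), Mki67 (1.05) and Cenpe (0.95). It was lower for 2 (9.36%), Cdk1 (-0.80) and Ube2c (-0.64), while Aurkb stood at -0.51, and the median was -0.02 against 0.30. With the depth classes of 5000 UMIs and above weighted equally, an alternative chosen after the data were seen, the median of the combination against anti-PD-1 was 0.08, and 11 of 36 members were higher (31.6% of all genes).

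Members that kept a difference at matched depth mostly had long transcripts, but not every long member kept one. Cdk1, at 4375 bases, did not between anti-PD-1 and the combination in cells of 20000 or more UMIs. Lengths are those of the longest coding transcript: 1060 bases for Stmn1, 1466 for Cenpa, 2191 for Ube2c and 3334 for Birc5, against 10061 for Mki67, 9867 for Aspm, 6748 for Gas2l3 and 4819 for Kif11. In all cells, the log2 ratio of the combination to anti-PD-1 had a Pearson correlation of 0.72 with log2 length over the 36 members (Spearman 0.69), and of 0.34 over 7208 genes. In cells of 20000 or more UMIs the correlation was 0.74 over the members and 0.49 over all genes. These are descriptions across genes of the same 2 libraries, and genes are not replicates. By class of length, the median log2 ratio at 20000 or more UMIs was -0.03 for the 8 members under 2000 bases, 0.31 for 18 members of 2000 to under 4000 bases and 0.81 for 10 members of 4000 or more. Over all genes the medians were -0.30, 0.11 and 0.59. Long genes that are not members thus had higher levels in the combination too.

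**Figure D3:**
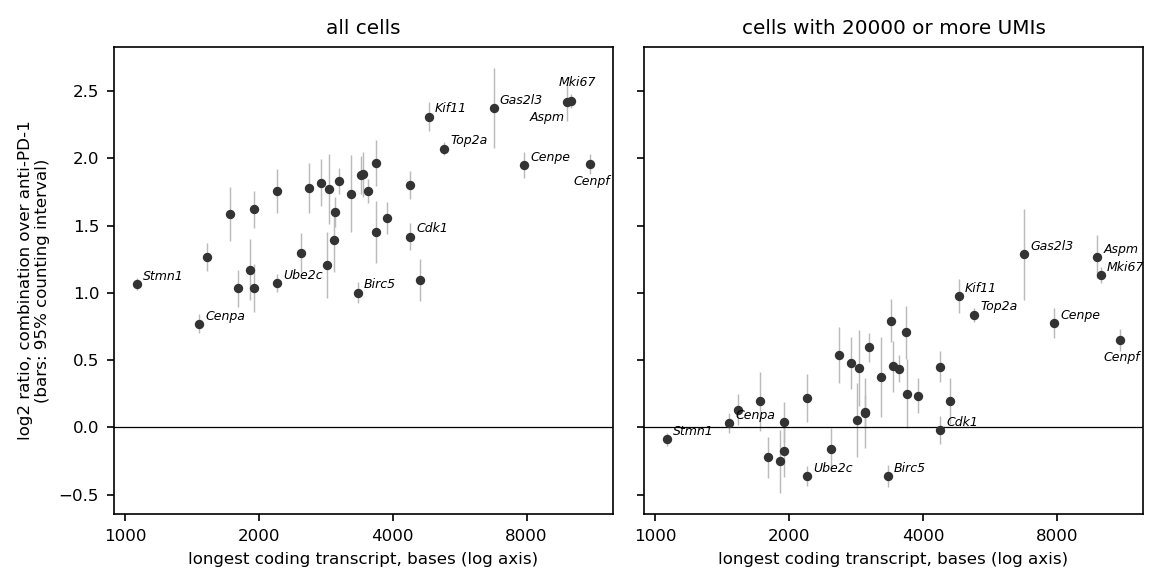
Log2 ratio of the combination to anti-PD-1 for each of the 36 members against the length of its longest coding transcript (bases, log axis), in all cells and in cells of 20000 or more UMIs. In both panels longer members lie higher, with a Pearson correlation of 0.72 in all cells and 0.74 in deep cells.

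The same relation, with the sign turned, appeared in anti-PD-1 against vehicle (-0.66 over the members, -0.44 over all genes) and in ATT-I against vehicle (-0.60 and -0.40). In the combination against vehicle it was -0.18 over the members and -0.16 over all genes. Within the anti-PD-1 library it was near 0 over the members, at -0.0046 for deep against shallow cells and 0.05 for CD8 against CD4 cells, and -0.20 and -0.080 over all genes. Relative to short ones, long transcripts were thus higher in vehicle and the combination than in the single treatments. The cause was not tested.

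T cell subsets were set by their own transcripts. The CD8 gate needed 2 or more UMIs of Cd8a and Cd8b1 and no Cd4, the CD4 gate needed Cd4 without Foxp3, and the Foxp3 gate took cells with Foxp3, the transcription factor of regulatory T cells; the last 2 gates allowed at most 1 UMI of Cd8. CD8 cells numbered 47 in vehicle, 8333 with anti-PD-1, 107 with ATT-I and 117 with both, with 24445, 7784, 9095 and 27755 UMIs in the median cell. In CD8 cells the summed level of the members was 97.4, 24.1, 27.1 and 89.5. In CD4 cells it was 20.4, 13.4, 9.79 and 16.5, from 53, 1087, 90 and 40 cells. In Foxp3 cells it was 88.1, 19.8, 18.4 and 30.5, from 24, 994, 28 and 23 cells. Vehicle CD8 and Foxp3 cells were thus high and CD4 cells low, and over all depths CD4 cells differed least between libraries. This did not hold in CD4 cells of 10000 to under 20000 UMIs. There the summed level was 37.5, 38.6, 42.8 and 6.43, from 12, 111, 10 and 16 cells. Mki67 in CD8 cells stood at 10.7, 1.49, 1.95 and 10.0, in CD4 cells at 2.77, 0.925, 0.602 and 2.79, and in Foxp3 cells at 13.8, 1.58, 2.65 and 4.62.

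In CD8 cells the combination could be compared with both single treatments, since each gate held at least 50 cells; vehicle, with 47, is given as values only. It was higher than anti-PD-1 for 36 of 36 members (25.9% of all genes) and lower for 0 (11.0%), with a median of 2.02 against 0.17. Aspm (2.80), Mki67 (2.75) and Gas2l3 (2.65) had the highest ratios and Cenpa (1.11), Birc5 (1.35) and Knstrn (1.36) the lowest. It was higher than ATT-I for 36 of 36 (30.6%) and lower for 0 (9.89%), with a median of 1.73 against 0.27. Gas2l3 (3.62), Prc1 (2.44) and Bub1b (2.40) had the highest ratios and Kif2c (0.89), Ccnb2 (1.01) and Cdc20 (1.03) the lowest. In CD8 cells of 20000 or more UMIs the summed level was 99.7 in vehicle (32 cells), 71.8 with anti-PD-1, 58.4 with ATT-I (18 cells) and 95.4 with both (88 cells). In CD8 cells of 10000 to under 20000 UMIs it was 88.0, 47.0, 40.8 and 75.3, from 14, 2243, 30 and 24 cells, so the combination stayed above anti-PD-1 in both classes. With CD8 cells limited to 8000 to 24000 UMIs, an alternative chosen after the data were seen, the median was 1.04 over anti-PD-1 and 0.75 over ATT-I.

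In CD4 cells anti-PD-1 was lower than vehicle for 16 of 32 members (35.8% of all genes) and higher for 0 (11.3%), with a median of -0.57 against -0.29. Cenpf (-1.69), Mki67 (-1.58) and Aspm (-1.55) were lowest, and Aurka (0.56, -0.28 to 1.39), Cenpa (0.21) and Cdc20 (0.10) highest. ATT-I was lower than vehicle for 20 of 29 (38.3%) and higher for 0 (9.3%), with a median of -0.75 against -0.36. Cenpe (-2.63), Aspm (-2.31) and Mki67 (-2.20) were lowest, and Cdk1 (-0.05), Melk (-0.08) and Ckap2 (-0.13) nearest to vehicle. Both results turned direction in CD4 cells of 8000 to 24000 UMIs, an alternative chosen after the data were seen, where the medians were 0.55 and 0.63. Vehicle had 53 CD4 cells in all.

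The share of cells with many members detected depends both on how many cells express the group and on how strongly, and it was read at 1 fixed depth. Each cell was thinned to 3000 UMIs, which left out 2, 484, 20 and 5 shallower cells in the same order of libraries. Cells with 5 or more members made up 75 of 153 in vehicle (49.0%, exact 95% interval 40.9% to 57.2%) and 2317 of 12078 in anti-PD-1 (19.2%, 18.5% to 19.9%). With ATT-I they made up 54 of 277 (19.5%, 15.0% to 24.7%), and with both agents 115 of 194 (59.3%, 52.0% to 66.3%). The intervals of vehicle and the combination overlapped each other and neither single treatment. They count cells of 1 library each and hold no spread between libraries, so they do not bear on the treatments. Without thinning the shares were 56.1%, 33.9%, 24.9% and 69.3%. At the limit, 4, 550, 6 and 3 cells had 4 members and 2, 265, 2 and 4 cells had 5. Thinned to 2000 UMIs the shares with anti-PD-1 and with ATT-I were each 16.3%, and at 5000 they were 28.6% and 31.5%. Cells without any member made up 22.2%, 16.8%, 43.7% and 16.5%, so anti-PD-1 had the fewest empty cells beside the combination while most of its cells held 1 to 4 members. UMIs from free RNA were not measured.

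Among CD8 cells the share with 5 or more members was 84.8% in vehicle (71.1% to 93.7%), 21.4% with anti-PD-1, 31.7% with ATT-I and 81.7% with both. Among CD4 cells it was 17.3%, 10.2%, 8.14% and 15.0%, and among Foxp3 cells 70.8%, 17.0%, 29.2% and 36.4%. CD4 cells therefore had the lowest share in each library. By depth, cells of 20000 or more UMIs had shares of 79.0%, 76.9%, 69.7% and 81.3%, and cells of 5000 to under 10000 UMIs had 9.76%, 8.49%, 8.33% and 10.0%. The depth classes lay far apart. Within each of these depths the shares lay near each other, but the intervals of the small libraries were wide. In the shallower class they were 2.72% to 23.1% in vehicle (4 of 41 cells) and 1.23% to 31.7% with both (2 of 20). In the deeper class ATT-I had 23 of 33 cells (51.3% to 84.4%). A difference between libraries inside these intervals could not be seen. In all cells of 10000 to under 20000 UMIs the share was 48.8%, 41.6%, 37.5% and 26.0%, with the combination lowest.

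**Figure D4:**
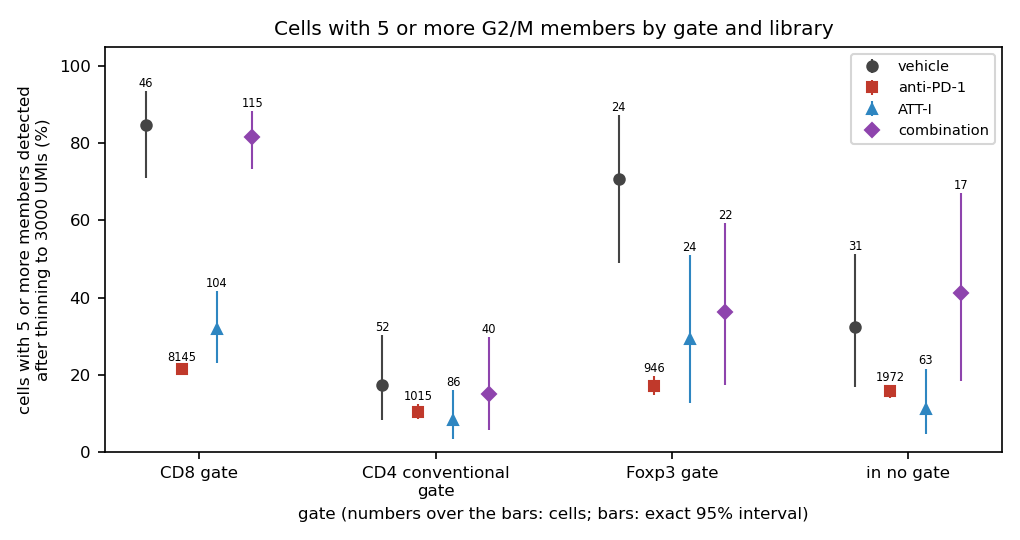
Percent of cells with 5 or more of the 36 members detected after thinning to 3000 UMIs, by gate and library, with exact 95% intervals and the number of cells over each bar. CD8 cells of vehicle (84.8%) and the combination (81.7%) stand above those of anti-PD-1 (21.4%) and ATT-I (31.7%), and CD4 cells are low in every library.

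Cells with 5 or more members can be described but not tested, since the members chose them. In them the summed level was 111 in vehicle, 87.1 with anti-PD-1, 74.7 with ATT-I and 106 with both. Mki67 stood at 13.3, 5.86, 5.69 and 12.5, Top2a at 14.8, 8.02, 7.18 and 14.7, and Aspm at 2.26, 0.910, 0.932 and 1.81. Stmn1 stood at 12.0, 14.4, 12.9 and 12.6, Birc5 at 4.64, 5.73, 4.60 and 4.53, and Cdk1 at 2.73, 2.50, 2.41 and 2.79. Mki67, Top2a and Aspm thus kept the split of the libraries inside the selected cells, and Stmn1, Birc5 and Cdk1 did not. In the remaining cells Cenpa stood at 0.508, 1.28, 0.481 and 0.630 and Stmn1 at 0.489, 1.23, 0.539 and 1.19. Anti-PD-1 was highest for Cenpa outside the selected cells and close to the combination for Stmn1, while Mki67 there stood at 0.850, 0.337, 0.305 and 0.626.

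Within the anti-PD-1 library alone, where cells of 1 library share their preparation, CD8 cells were higher than CD4 cells for 29 of 32 members (5.09% of all genes) and lower for 0 (9.57%). The median log2 ratio was 0.76 against -0.08 for all genes. Cenpf (1.26), Cep55 (1.18) and Ube2c (1.12) had the highest ratios, and Melk (0.12), Aurka (0.37) and Ckap2 (0.53) did not reach 1.5-fold. CD8 cells were also deeper, with 7784 UMIs in the median cell against 5336. In cells of 8000 to 24000 UMIs the median ratio was 0.38, and 5 of 35 members were higher by 1.5-fold (4.88% of all genes). Foxp3 cells, with 5645 UMIs in the median cell, were higher than CD4 cells for 13 of 30 members (6.17%) and lower for 0 (4.85%), with a median of 0.52 against 0.03. Cenpf (0.94), Plk1 (0.87) and Cep55 (0.80) had the highest ratios and Aurka (0.02), Knstrn (0.26) and Melk (0.30) the lowest. Stricter gates need 1 more UMI of the gating gene, and the CD4 and Foxp3 gates then allow no Cd8 UMI. With them the median was 1.14 for CD8 and 1.23 for Foxp3 cells against CD4 cells.

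Klra6, an inhibitory receptor of the Ly49 family, was found in 945 anti-PD-1 cells and in 8, 15 and 8 cells of vehicle, ATT-I and the combination. In anti-PD-1, the Klra6 cells were higher than the other cells for 0 of 33 members (2.28% of all genes) and lower for 0 (4.25%), with a median of 0.06 against -0.02. Stmn1 (0.40), Kif20a (0.28) and Bub1 (0.26) had the highest ratios and Cenpa (-0.46), Ube2c (-0.28) and Ccnb1 (-0.24) the lowest. The share of Klra6 cells with 5 or more members was 20.9%, beside 19.2% of all anti-PD-1 cells.

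The members went together from cell to cell. Among 2243 anti-PD-1 CD8 cells of 10000 to under 20000 UMIs, each member was correlated, as log2 of 1 plus UMIs per 10000, with the mean of the others. Over the 35 members at the minimum level the coefficient ran from 0.51 (Ttk) to 0.91 (Birc5), with a median of 0.75. Cenpf (0.91), Ube2c (0.89) and Nusap1 (0.88) were close to the top and Cenpa, at 0.71, was lower. The highest pairs were Ube2c with Cenpf (0.86) and Top2a with Nusap1 (0.83). All points come from 1 library. The coefficients with the mean of the members had a median of 0.63 over 79 other mitotic genes and 0.61 over 8 replication-dependent histone genes. The median was 0.21 over 12 cell cycle transcription factors, 0.14 over 10 brakes of the cycle, 0.12 over 34 G1/S genes and -0.05 over 8 T cell genes. The highest of the brakes was Cdkn2d (0.64) and the highest of the G1/S genes was Rrm2 (0.59). Tubb4b and Cdca8 (0.88 each) and Cdca3 (0.85) were the other mitotic genes most like the group, and Pttg1 (0.10), which encodes securin, was the least.

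Other genes of the cycle were read from lists chosen with earlier results of these data known. Of 80 other mitotic genes that entered, anti-PD-1 was lower than vehicle for 75 (34.0% of all genes were) and higher for 1 (7.04%), with a median of -1.51 against -0.30 for all genes. Ncapg2 (-2.85), Espl1 (-2.42) and Ccnf (-2.38) were lowest and Pttg1 (0.62), Cenpq (-0.11) and Bub3 (-0.14) highest. Of 12 cell cycle transcription factors, 10 were lower, among them E2f7 (-2.31), Foxm1 (-2.20), which drives G2/M genes, and E2f8 (-2.13). Of 33 DNA replication and G1/S genes, 22 were lower, with a median of -0.89 and the lowest values at Ccne2 (-2.35), Mcm10 (-1.91) and Pcna (-1.84). Of 10 brakes of the cycle 2 were lower, a smaller share than that of all genes: Wee1 (-1.46), which inhibits Cdk1, and Cdkn1a (-1.21), the inhibitor p21.

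In the combination against anti-PD-1, the other mitotic genes were higher for 75 of 79 (24.7% of all genes were) with a median of 1.58 against 0.17, led by Ncapg2 (2.46), Arhgap11a (2.39) and Kif14 (2.37), and Pttg1 was lowest at -0.45. The transcription factors were higher for 11 of 13, led by E2f8 (2.27), E2f7 (2.0) and Foxm1 (1.95), and Lin37 was lowest at -0.91. The G1/S genes were higher for 29 of 33, with a median of 1.11, led by Mcm10 (2.28), Pcna (2.13) and Clspn (1.95). Of the brakes 3 of 10 were higher, near the share of all genes: Wee1 (1.60), Cdkn1a (1.39) and Gadd45b (1.26). In all cells of 10000 to under 20000 UMIs the G1/S genes were higher for 1 of 34 (33.3% of all genes) and lower for 16 (11.3%). The median was -0.56 against 0.25, so over all cells the direction turned at that depth, as did the median of the members. The mix of cells differed there. In CD8 cells of that depth the summed level of the members stayed higher in the combination, at 75.3 against 47.0. In the combination against vehicle the other mitotic genes were higher for 1 of 83 (4.01%) and lower for 2 (14.4%), with a median of 0.06 against -0.10. Within anti-PD-1, deep cells were higher than shallow cells for 65 of 67 other mitotic genes and for 31 of 31 G1/S genes (7.7% of all genes).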

How the data were processed

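Single-cell RNA of 4 libraries, 1 for each arm, was analysed from 1 table of 13518 genes and 13213 cells. Cell Ranger, Seurat and mm10 are named in the submitters' processing notes; versions, parameters and cell filters are not given in the sources used here. The authors deposited natural log values. They were read as the natural log of 1 plus UMIs per 10000, less a constant per library, with negative results set to 0. The constants were 0.247 in vehicle, 0.249 with anti-PD-1, 0.153 with ATT-I and 0.225 with both, and no source explains them. With them 100% of non-zero values became whole UMIs within 0.02, a tolerance that widens above 50 UMIs. The subtraction had set genes with 1 UMI to 0 in 21, 37, 0 and 37 of the deepest cells, which were kept. Where the level of a library was 0, a floor of 3 UMIs was used.

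Levels are means over cells of UMIs per 10000, and ratios of levels have 95% counting intervals (gamma for levels, delta method for ratios). Exact binomial intervals were used for shares. Gate comparisons needed 50 cells in both groups. Named were 21 members fixed by symbol, in each comparison the 3 highest and 3 lowest members, and genes among the 3 highest or lowest of each other list; a few further members illustrate a pattern and were chosen after their values were seen. The members and lists were chosen with earlier results of these data known. Scripts (Python 3.11.15 with pandas 2.3.3, scipy 1.17.1, numpy 2.4.6 and matplotlib 3.10.9) were tested on simulated data. Promoters came from RefSeq, GRCm38.p6, and gene starts and transcript lengths from the GENCODE annotation of that build. Alternatives were other filters, scalings, depths, cell mixes, gates, fold lines and thinning depths.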

Additional observations from a re-analysis of the deposited data

How the results depend on the processing

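No paired analysis was possible because each arm has 1 library and replicate number 1 is the only number in the labels. With 47 to 117 CD8 cells in the 3 small libraries, counting error and cell choice limit each gate. Of the alternatives to the medians and shares, 69 kept the value within its spread, 43 moved it and 1 turned the sign of a median past 1.5-fold; counting smaller medians, 8 turned a sign. For single members and counts, 1214 kept the value, 890 moved it and 54 turned the sign of a member past 1.5-fold. The cause of these moves was not tested, except that fewer genes enter with a stricter filter. Equal depth bins, leaving out cells that lost genes with 1 UMI, and the alternatives of the arm comparisons within gates were chosen after the data were seen.

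In cells of 8000 to 24000 UMIs the median log2 ratio of the members over vehicle was -0.80 with anti-PD-1, -0.86 with ATT-I and -0.56 with both. The combination stood at 0.10 over anti-PD-1 and at 0.26 over ATT-I. In that window and in CD8 cells it stood at 1.04 and 0.75 over the same libraries, and CD4 cells with anti-PD-1 or ATT-I stood at 0.55 and 0.63 over vehicle. It was 0.38 for CD8 against CD4 cells and -0.15 for Klra6 cells. With 3 depth bins weighted equally the 5 arm medians, in the order just given, were -0.52, -0.84, -0.27, 0.084 and 0.57. With the 3 gates weighted equally the median over vehicle was -1.97 with anti-PD-1 and -0.65 with both, and the combination stood at 1.33 over anti-PD-1 and 1.34 over ATT-I. The mean of deposited log values gives a difference of mean logs, not a log2 ratio of mean levels, and still holds the library constants. The line of 1.5-fold was kept for it though its scale differs. With the mean of deposited log values, the median over vehicle was -0.28 with anti-PD-1 and -0.34 with ATT-I. There the combination stood at 0.37 over anti-PD-1 and 0.36 over ATT-I, CD8 against CD4 cells 0.095, Foxp3 against CD4 cells 0.060 and deep against shallow cells 0.31. From summed UMIs ATT-I stood at -1.43 over vehicle, the combination at 1.29 over anti-PD-1 and 1.37 over ATT-I (in CD8 cells 1.46 and 1.22), and deep against shallow cells 2.31. Relative to the median of all genes anti-PD-1 against vehicle was -1.28 and the combination against anti-PD-1 1.51 (1.85 in CD8 cells). Without the deepest 5% of cells the combination against anti-PD-1 was 1.87 and deep against shallow cells 2.03. With stricter gates CD8 against CD4 cells was 1.14, Foxp3 against CD4 cells 1.23 and Klra6 cells 0.25. The share of anti-PD-1 cells with 5 or more members was 16.3% when thinned to 2000 UMIs and 28.6% at 5000, and that of ATT-I cells 31.5% at 5000.

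In the combination against vehicle, where no member reached 1.5-fold, 22 of 36 members had the other sign in the window, 22 with the gates weighted equally and 20 with equal bins, and 1 to 6 did in 6 other alternatives. Members past 1.5-fold in all cells turned their sign in the window and with equal bins. For anti-PD-1 against vehicle, the window gave Aurka 0.22, Birc5 0.029 and Stmn1 0.10, and equal bins gave Cdkn3 0.29, Aurka 0.17, Cdc20 0.066, Ube2c 0.30, Birc5 0.34 and Stmn1 0.29. For the combination against anti-PD-1, the window gave Cdk1 -0.28, Ccnb1 -0.16, Ccnb2 -0.0046, Aurka -0.23, Pbk -0.53, Melk -0.18, Cdc20 -0.011, Ube2c -0.50, Birc5 -0.48, Cenpa -0.33, Knstrn -0.074, Kif2c -0.092 and Stmn1 -0.44. Equal bins gave Cdk1 -0.21, Ccnb1 -0.38, Ccnb2 -0.015, Cdkn3 -0.23, Aurka -0.26, Aurkb -0.16, Pbk -0.21, Melk -0.033, Cdc20 -0.27, Ube2c -0.50, Birc5 -0.46, Cenpa -0.21, Knstrn -0.037, Kif2c -0.26, Kif20a -0.20 and Stmn1 -0.37. For the combination against ATT-I, the window gave Cdk1 -0.31, Ccnb2 -0.18, Cdkn3 -0.068, Aurkb -0.045, Ttk -0.15, Pbk -0.24, Melk -0.52, Cdc20 -0.011, Ube2c -0.26, Birc5 -0.26, Knstrn -0.18, Kif2c -0.33, Kif20a -0.044 and Stmn1 -0.25, and equal bins gave Kif2c -0.21 and Stmn1 -0.026.

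Counts of members moved too, and the share of all genes called in the same alternative is given in brackets. In the window the combination was higher than anti-PD-1 for 9 (32.6%) and than ATT-I for 10 (32.2%) of 36 members, and with equal bins for 11 (31.6%) and 17 (30.8%). With the mean of log values it was higher for 9 (1.88%) and 11 (1.44%), and with a filter of 0.5 UMIs per 10000 for 21 of 21 both times (23.2% and 25.9%). Anti-PD-1 and ATT-I were lower than vehicle for 3 (1.07%) and 4 (0.483%) members with the mean of log values, and for 21 of 22 (27.6%) and 21 of 21 (28.4%) with that filter. Anti-PD-1 was lower for 13 (37.8%) with equal bins. The combination was lower than vehicle for 18 (16%) in the window and 23 (17.7%) with the gates weighted equally. At 2-fold CD8 cells were higher than CD4 cells for 8 members (1.98%) and Foxp3 cells for 0 (2.03%). Foxp3 cells were higher for 27 of 30 with a fold line under 1.5 (16.7%), for 30 of 31 with stricter gates (11.4%) and for 25 of 33 from summed UMIs (5.83%).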
